A study of Mus musculus with 4 samples.

Results

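Dermal fibroblast lineage and identity genes were followed in primary fibroblasts from the skin of newborn mice. The set holds 10 genes named by symbol, namely Dpp4, Lrig1, Prdm1, En1, Twist1, Twist2, Ly6a, Thy1, Cd34 and Crabp1, and a probe set counted as a member where the platform annotation gave it exactly 1 of these genes. This gave 14 probe sets for 9 of the 10 genes, out of 45101 probe sets and 18193 named genes in all. Dpp4 had 4 probe sets, Lrig1 had 3, and each of the other measured genes had 1. No probe set carried the name Ly6a in that annotation, so Ly6a was not analysed here.

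The fibroblasts came from animals without ADAM9, a membrane-anchored metalloprotease of the cell surface (Adam9 knockout, 2 isolations of cells), or from wild-type animals (2 isolations), all at postnatal day 1. Each isolation was measured on 1 array after 48 h of untreated culture. The labels give neither the strain, nor the number or sex of the animals behind an isolation, nor the deleted part of Adam9. The comparison addressed which genes differ constitutively between the genotypes.

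The dermis of the mouse is built by fibroblasts that descend from several embryonic lineages. A papillary lineage below the epidermis supports hair follicles, and a reticular lineage deeper down lays down most of the fibrous matrix and gives rise to fat cells of the hypodermis. Surface proteins such as DPP4, LRIG1, SCA-1 (the product of Ly6a), THY1 and CD34 are used to sort these cells, while transcription factors such as EN1, TWIST1, TWIST2 and PRDM1 mark where and when a lineage arose.

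Over the 4 arrays the lineage and identity genes differed more between isolations of at least 1 genotype than between genotypes. The same held for 69.1% of all genes tested. A gap between isolations compares single arrays, while the genotype difference compares means of 2. None of the 9 genes separated the knockout from the wild type at the probe set that stood for it, which was the one with the highest mean. Of all genes tested, 45% separated them. Dpp4, Cd34 and Crabp1 had the widest spread, at 1.77 to 2.43 log2 units between the lowest and the highest array, against a median of 0.42 over the 13271 genes tested. Thy1, Lrig1 and Twist2 had spreads of 0.20 to 0.42. All 14 probe sets were lower in wild-type isolation 2 than in wild-type isolation 1, where 50.2% of all genes tested were lower.

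**Figure D1:**
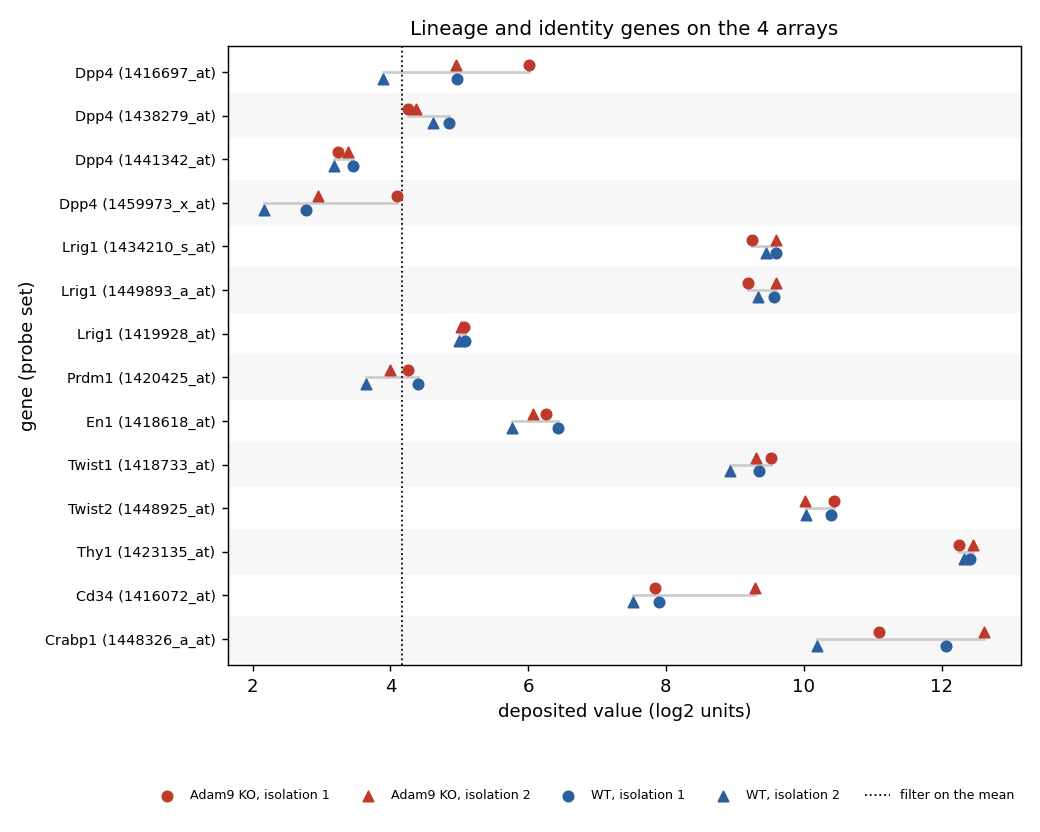
Deposited log2 values (horizontal axis) of the 14 probe sets (rows) on each of the 4 arrays; red marks are Adam9 knockout and blue marks wild type, circles isolation 1 and triangles isolation 2, and the dotted line is the filter on the mean at 4.17. Crabp1, Cd34 and 2 of the Dpp4 probe sets spread widely, while Thy1 and Lrig1 lie close together.

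The deposited values were taken as log2, since they ran from 1.70 to 14.37 with array medians of 4.83 to 4.87. If the base were not 2, the folds would change and the order of values would not. A gene was tested with limma where its mean was over the 40th percentile of the probe sets that are not controls (4.17), with Benjamini-Hochberg adjustment across every gene in the fit. Of the members, 8 genes and 11 of the 14 probe sets passed this filter. Prdm1 and a pair of Dpp4 probe sets (1441342_at and 1459973_x_at) did not. An adjusted p under 0.05 was the threshold for a call, and SD values are over n = 2 arrays throughout. With 2 arrays against 2, an exact permutation test of a single gene cannot give a two-sided p below 0.333, so such tests were not run.

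As a check of the labels, Adam9 stood at 8.33 and 8.55 in the knockout arrays, against 11.58 and 11.70 in the wild-type arrays. Its difference (knockout minus wild type) was -3.20. The genotypes also differed in sex-linked expression. Xist, the RNA that silences an X chromosome in female cells, stood at 10.38 and 10.40 in the knockout arrays, against 4.29 and 4.32 in the wild-type arrays. Genes of the Y chromosome went the other way. Eif2s3y had 2.75 and 2.67 in the knockout, against 9.19 and 9.31 in the wild type. Kdm5d had 2.36 and 2.33 against 7.66 and 7.06, and Uty had 2.78 and 2.26 against 7.20 and 7.22. Genotype and sex-linked expression cannot be told apart in any value below, and Mki67, a proliferation marker, moved with both, at 8.80 and 9.03 in the knockout arrays against 6.81 and 6.59 in the wild-type arrays. General dermal fibroblast markers were present, with 21 of 21 measured above the filter. Lists for other cells had some markers above it, namely 5 of 10 for endothelial cells, 5 of 12 for keratinocytes, 2 of 7 for melanocytes, 2 of 6 for T cells, 7 of 9 for Schwann and neural cells, 5 of 7 for adipocytes, 3 of 10 for skeletal muscle and 11 of 11 for pericytes and smooth muscle. Of their defining markers, Pecam1, Cdh5, Krt14, Adipoq and Myod1 were below the filter and Krt5, Cd3e and Sox10 above it. Sox10, a factor of neural crest derivatives, stood at 5.45 and 5.80 in the knockout, against 5.56 and 5.56 in the wild type. Sox10 does not stand for its list. Of the 9 Schwann and neural markers measured, 8 had higher means in the knockout, against 50.5% of all genes tested. For 5 of the 9 the knockout lay above the wild type without overlap, and 45% of all genes tested did not overlap. Macrophage and leukocyte markers, 15 of 19 above the filter, had a median level of 4.40 and 4.28 in knockout isolations 1 and 2, against 8.37 in wild-type isolation 1 and 4.39 in wild-type isolation 2. In such bulk RNA, fewer cells of a type and less RNA per cell cannot be told apart.

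Among the surface proteins of papillary fibroblasts, Dpp4, a peptidase that trims signalling peptides outside the cell, had the largest genotype difference of the set and also disagreed between its probe sets. Probe set 1416697_at, which stood for the gene, was at 6.01 and 4.95 in knockout isolations 1 and 2, against 4.97 and 3.89 in wild-type isolations 1 and 2. Knockout isolation 1 was high, wild-type isolation 2 was low, and knockout isolation 2 lay just under wild-type isolation 1, so the genotypes overlapped. The means were 5.48 ± 0.746 in knockout cells and 4.43 ± 0.767 in wild-type cells (SD, n = 2 each). The difference of 1.05 log2 units, or 2.07-fold, had an SE of 0.525 and a 95% interval of -0.36 to 2.46 and did not pass (limma adjusted p = 0.523). A size of at least 1 was found for 4.81% of genes tested. The gap between isolations was as large as that between genotypes, at -1.06 in knockout and -1.09 in wild-type cells (isolation 2 minus 1). With this probe set kept, leaving out wild-type isolation 2 gave a difference of 0.51, and leaving out wild-type isolation 1 gave 1.59.

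The other Dpp4 probe sets did not share 1 pattern. The dim 1459973_x_at, at 4.09 and 2.95 in the knockout against 2.78 and 2.17 in the wild type, had the same highest and lowest arrays and differed by 1.05, with no overlap. Probe set 1438279_at ran the other way, at 4.26 and 4.37 in the knockout against 4.85 and 4.62 in the wild type. Its difference of -0.42 (SE 0.151) did not pass in the fit over 23595 probe sets (limma adjusted p = 0.433, unadjusted p = 0.043), although the genotypes did not overlap there, as for 44.5% of probe sets tested. The last, 1441342_at, stayed between 3.18 and 3.46 on all arrays. A direction for Dpp4 therefore depends on the probe set, and the mean over the 4 probe sets differed by 0.42.

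Lrig1, a transmembrane protein that dampens signalling by epidermal growth factor receptors, was nearly level. Its probe set 1434210_s_at had 9.25 and 9.59 in the knockout arrays, against 9.59 and 9.45 in the wild-type arrays, and knockout isolation 1 was the lowest of the 4. The difference was -0.099 (SE 0.173, 95% interval -0.56 to 0.36, limma adjusted p = 0.855). Probe set 1449893_a_at likewise had its lowest value in knockout isolation 1, with 9.19 and 9.60 in the knockout against 9.57 and 9.33 in the wild type. The dimmer 1419928_at stayed between 4.99 and 5.09. Of its relatives, Lrig3 stood at 8.85 and 8.61 in the knockout against 8.46 and 7.71 in the wild type, and Lrig2 at 6.76 and 6.32 against 6.83 and 6.57. Lrig2 and Lrig3 were chosen after their values were seen.

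Prdm1 encodes BLIMP1, a transcriptional repressor found in papillary precursors and in the dermal papilla. It was dim, at 4.25 and 3.999 in the knockout arrays against 4.40 and 3.64 in the wild-type arrays, and was not tested. Isolation 1 was the higher array in both genotypes, and the wild-type gap of -0.76 enclosed both knockout values.

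En1, the homeobox factor whose expression in the embryo marks a lineage of dorsal skin fibroblasts, gave 6.26 and 6.07 in the knockout, against 6.43 and 5.77 in the wild type. Both knockout arrays lay between the wild-type arrays. The difference of 0.070 had an SE of 0.260 and a 95% interval of -0.63 to 0.77 (limma adjusted p = 0.944). Between the wild-type isolations En1 differed by -0.66, a size reached by 6.23% of genes tested, and between the knockout isolations by -0.18.

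Twist1 and Twist2 are basic helix-loop-helix factors of mesenchyme, the second also known as Dermo1, and they bind DNA at the E-box with the letters CANNTG. Twist1 had 9.52 and 9.30 in the knockout, against 9.35 and 8.93 in the wild type, with wild-type isolation 2 the lowest. Its difference was 0.27 (SE 0.199, 95% interval -0.26 to 0.81, limma adjusted p = 0.637), and it dropped to 0.063 when wild-type isolation 2 was omitted but reached 0.48 on omitting wild-type isolation 1. Twist2 had 10.45 and 10.02 in the knockout, against 10.39 and 10.04 in the wild type. The first isolation of each genotype was the higher one for both factors, and the Twist2 arrays of like number lay close together. The Twist2 difference was 0.021 (SE 0.222, 95% interval -0.57 to 0.62, limma adjusted p = 0.982).

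A list of dimer partners, inhibitors and reported targets of TWIST factors had 14 genes measured and 13 tested, of which 0 passed (limma, 2 at an unadjusted p under 0.05). Its median difference was 0.042, against 0.0027 over all genes tested. Cdh2, the adhesion protein N-cadherin, had the largest difference, -1.19 (SE 0.355, limma adjusted p = 0.384), at 9.13 and 9.91 in the knockout against 10.41 and 11.02 in the wild type. The receptor gene Pdgfra differed by 1.16, and by 0.37 without wild-type isolation 2.

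Of the general fibroblast surface markers, Thy1, a glycoprotein held to the membrane by a lipid anchor, varied least of the 9 genes. It stood at 12.26 and 12.45 in the knockout arrays, against 12.41 and 12.33 in the wild-type arrays, and the wild-type values fell between the knockout ones. The difference was -0.012 (SE 0.140, limma adjusted p = 0.984), and its 95% interval of -0.39 to 0.36 gives the sizes of change these arrays leave possible. Its sign turned with median centring and with a further quantile normalization.

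Cd34, a sialomucin of fibroblasts, blood vessels and blood precursors, was high in 1 knockout array. It had 7.85 and 9.29 in knockout isolations 1 and 2, against 7.90 and 7.52 in wild-type isolations 1 and 2. Knockout isolation 2 stood alone, and knockout isolation 1 lay inside the wild-type range. The means were 8.57 ± 1.02 in knockout cells and 7.71 ± 0.269 in wild-type cells (SD, n = 2 each). The difference of 0.86, or 1.81-fold, did not pass (SE 0.517, 95% interval -0.53 to 2.24, limma adjusted p = 0.574) and was 0.13 without knockout isolation 2. The gap of 1.44 between the knockout isolations was matched or exceeded by 1.39% of genes tested. Endothelial markers had 5 of 10 above the filter, and their median level was 4.11 and 4.15 in the knockout, against 3.98 and 4.18 in the wild type. Their summed level on the log2 scale was 8.24 and 8.28 in the knockout, against 8.15 and 8.06 in the wild type. By mean, 4 of the 10 were higher in the knockout and 6 lower. Tek, with the largest difference of that list, had 6.06 and 6.37 in the knockout, against 5.98 and 5.13 in the wild type. The part of endothelial cells in the Cd34 values was not tested.

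Crabp1, a cytosolic protein that binds retinoic acid and marks fibroblasts of the dermal condensate and papilla, had the widest spread of the set. Its values were 11.09 and 12.62 in knockout isolations 1 and 2, against 12.07 and 10.20 in wild-type isolations 1 and 2. Knockout isolation 2 was highest, wild-type isolation 2 lowest, and the other two lay between, so that isolation 2 was the higher knockout array and the lower wild-type array. The means were 11.86 ± 1.09 in knockout cells and 11.13 ± 1.33 in wild-type cells (SD, n = 2 each). The difference of 0.72, or 1.65-fold, did not pass (SE 0.828, 95% interval -1.50 to 2.94, limma adjusted p = 0.767). Leaving out wild-type isolation 2 gave -0.22, and leaving out wild-type isolation 1 gave 1.66. The isolation gaps of 1.54 (knockout) and -1.87 (wild type) were reached in size by 1.10% and 0.761% of genes tested.

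Among the binding proteins for retinoids and their fatty acid-binding relatives, Crabp2 differed between genotypes with the opposite sign to Crabp1. Between isolations (2 minus 1), Crabp2 had a gap of 1.12 in the knockout, the same sign as Crabp1. In the wild type the Crabp2 gap was 0.31, the opposite sign to Crabp1. It had 6.43 and 7.55 in the knockout, against 7.81 and 8.12 in the wild type, a difference of -0.98 (SE 0.410, limma adjusted p = 0.471) with no overlap. The difference was -0.42 without knockout isolation 1. Fabp5, a fatty acid-binding protein, had 11.99 and 11.97 in the knockout, against 11.29 and 11.23 in the wild type (difference 0.71, SE 0.122, limma adjusted p = 0.219). The list of LY6, LRIG and retinoid-binding genes had 15 measured and 11 tested, of which 0 passed (limma, 1 at an unadjusted p under 0.05), and its median was 0.057.

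The promoters of Crabp1, Cd34 and Dpp4 are shown because these genes spread most over the arrays. RefSeq sequences of build GRCm38.p6 matched 8 of the 10 genes, all but Thy1 and Ly6a, with a window of 300 bases around a gene start for each. They are given 5′ to 3′ along the gene's strand, and capitals mark the E-box letters CANNTG, which read alike on both strands.
Crabp1, chr9:54764498-54764797, plus strand: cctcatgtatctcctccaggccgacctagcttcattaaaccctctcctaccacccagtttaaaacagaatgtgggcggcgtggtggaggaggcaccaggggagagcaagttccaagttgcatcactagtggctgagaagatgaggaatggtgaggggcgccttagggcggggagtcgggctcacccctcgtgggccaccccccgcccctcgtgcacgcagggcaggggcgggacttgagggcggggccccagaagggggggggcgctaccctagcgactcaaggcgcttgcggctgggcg
Cd34, chr1:194938571-194938870, plus strand: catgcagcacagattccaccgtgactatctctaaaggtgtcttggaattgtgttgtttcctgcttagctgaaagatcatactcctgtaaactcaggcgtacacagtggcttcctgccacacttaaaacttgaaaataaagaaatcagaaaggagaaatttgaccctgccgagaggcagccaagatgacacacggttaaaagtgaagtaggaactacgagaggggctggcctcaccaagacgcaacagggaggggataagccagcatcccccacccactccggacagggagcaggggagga
Dpp4, chr2:62412182-62412481, minus strand: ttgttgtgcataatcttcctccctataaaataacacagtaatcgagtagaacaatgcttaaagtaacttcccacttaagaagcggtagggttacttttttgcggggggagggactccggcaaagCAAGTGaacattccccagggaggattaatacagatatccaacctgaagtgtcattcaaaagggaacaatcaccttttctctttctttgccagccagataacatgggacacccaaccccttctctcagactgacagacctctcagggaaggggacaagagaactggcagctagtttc
The Dpp4 window held 1 such match (CAAGTG), and those of Crabp1 and Cd34 held 0. Over all 8 windows, 3 had a match (Dpp4, En1 and Prdm1), against 72.3% of 32851 promoter entries of that length. The letters CATATG, 1 form of the E-box, were in 0 of the 8 and in 3.91% of all entries. A match or its absence describes these letters in this window only.

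Set against all genes, the lineage and identity genes gave no call. Of the 8 tested, 0 had an adjusted p under 0.05, where limma called 0.0678% of all genes, and 0 had an unadjusted p under 0.05, where 11.4% did. The genes called included Adam9 itself and the sex-linked Xist, Eif2s3y, Kdm5d and Uty. Of the 11 probe sets tested singly, 0 were called, against 0.0424% of all, and 1 had an unadjusted p under 0.05, against 11.1%. Non-overlap of the genotypes was seen for 0 of 9 genes, against 45% of genes tested. Higher means in the knockout were found for 7 of 9, against 50.5%. The median difference of the 9 was 0.11, with 0.0027 over all genes tested. Leaving out wild-type isolation 1 gave 0.48, and leaving out wild-type isolation 2 gave -0.16.

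**Figure D2:**
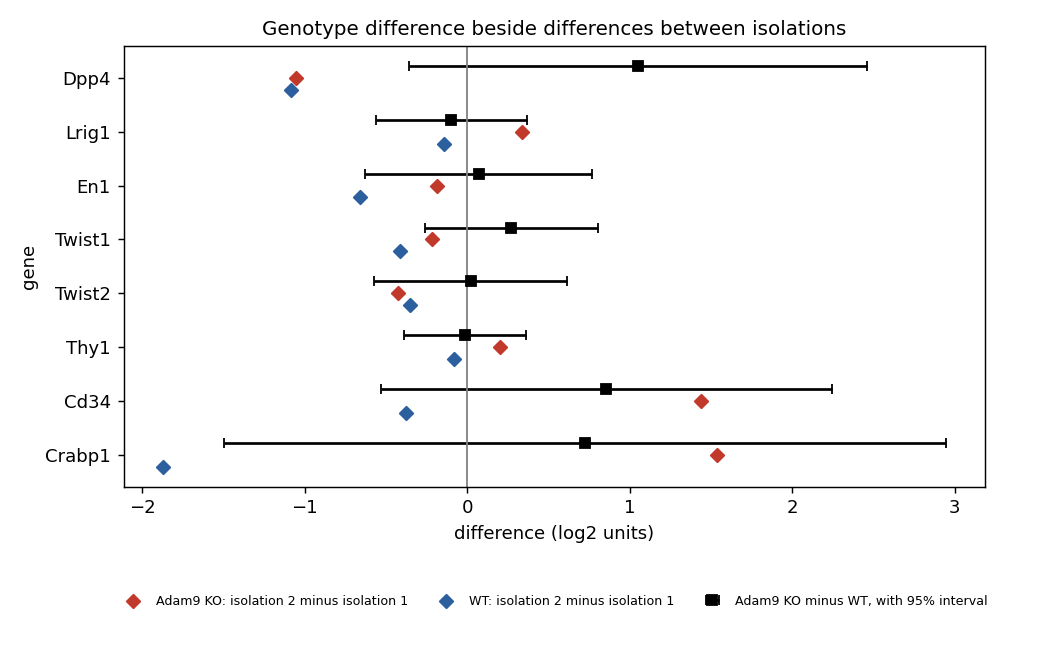
Differences in log2 units (horizontal axis) for the 8 genes tested (rows): black squares are Adam9 knockout minus wild type with the 95% interval of the limma fit, and diamonds are isolation 2 minus isolation 1 in knockout (red) and wild-type cells (blue). Every interval includes 0, and the Crabp1 isolations differ by 1.54 (knockout) and -1.87 (wild type).

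Differences between isolations were thus described beside those between genotypes. For 9 of the 9 genes, at least 1 of the gaps between isolations was larger in size than the genotype difference, and for 7 of 9 both were. Of all genes tested, 69.1% had at least 1 larger gap. In the knockout, Dpp4, Cd34 and Crabp1 differed by at least 1 between isolations, 3 of 9 genes, against 3.96% of genes tested. In the wild type, Dpp4 and Crabp1 did, 2 of 9, against 3.06%. The isolations of the knockout split the set. Lrig1, Thy1, Cd34 and Crabp1 were higher in isolation 2, while Dpp4, Prdm1, En1, Twist1 and Twist2 were lower, where 53.5% of genes tested were lower. In the wild type all 9 were lower in isolation 2, with a median of -0.42, against -0.0013 over all genes tested. Wider fibroblast lists, some of which share genes with the set, also had negative medians for wild-type isolation 2 minus 1. These were -0.37 (papillary), -0.23 (general dermal fibroblast), -0.20 (dermal papilla and condensate), -0.16 (reticular and hypodermal) and -0.15 (skin mesenchyme transcription factors). Negative medians were not limited to these lists. They were -0.25 (TWIST partners and targets), -0.17 (LY6 and retinoid-binding), -0.15 (adipocyte), -0.11 (pericyte and smooth muscle), -0.066 (melanocyte), -0.047 (T cell), -0.019 (endothelial) and -0.011 (Hox). Medians were positive for keratinocyte (0.018), Schwann and neural (0.043) and skeletal muscle (0.078) lists. The macrophage and leukocyte markers were also lower in wild-type isolation 2 than in wild-type isolation 1, with a median gap of -3.29. Their summed level on the log2 scale was 9.42 and 9.20 in the knockout, against 13.60 and 9.69 in wild-type isolations 1 and 2. Their part in the values of the lineage and identity genes was not tested.

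**Figure D3:**
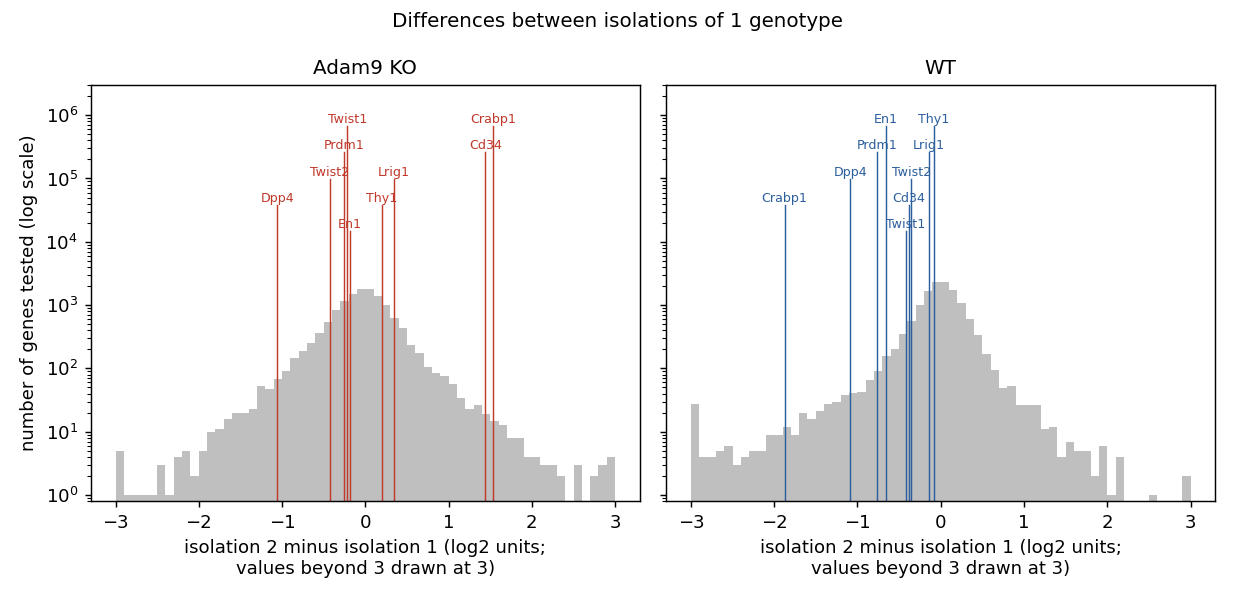
Isolation 2 minus isolation 1 in log2 units (horizontal axis) for all 13271 genes tested (grey bars, number of genes on a log scale), in Adam9 knockout (left) and wild type (right), with a line for each of the 9 genes. All 9 lines lie below 0 in the wild type, while in the knockout 4 lie above and 5 below.

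For the 3 genes with the widest spread, the genes with the nearest pattern were taken by Euclidean distance between values centred on each gene's mean, over 4 arrays and 1759 other genes that spread by at least 1. Crabp1 was nearest to Mmp3, a matrix metalloproteinase (distance 0.457), then to Tfpi2 and Gap43. Mmp3 stood at 4.72 and 6.87 in the knockout, against 5.88 and 3.99 in the wild type. Dpp4 was nearest to Qpct, a glutaminyl cyclase (distance 0.112), then to Cyb5r2 and Cebpa. Qpct had 8.96 and 7.79 in the knockout, against 7.79 and 6.80 in the wild type. Cd34 was nearest to Apcdd1, an inhibitor of Wnt signalling (distance 0.127), then to Adamtsl3 and Tfap4. Apcdd1 had 8.08 and 9.43 in the knockout, against 8.20 and 7.82 in the wild type. With 4 arrays, such likeness is only a description.

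Wider lists of fibroblast markers placed the set among its kind. Of the papillary list, 18 genes were measured and 15 tested, 3 of them from the set. Limma called 0, with 3 at an unadjusted p under 0.05, and 13 of 18 differences were positive, with a median of 0.14 that became -0.089 when wild-type isolation 2 was left out and 0.41 when wild-type isolation 1 was. Col7a1, the anchoring fibril collagen, had 8.37 and 8.16 in the knockout, against 9.17 and 10.55 in the wild type (difference -1.59, SE 0.484, limma adjusted p = 0.384), and leaving out wild-type isolation 2 gave -0.91. Pdpn, a membrane glycoprotein of upper dermal fibroblasts, had 12.36 and 12.50 in the knockout, against 11.71 and 11.34 in the wild type (difference 0.90, SE 0.179, limma adjusted p = 0.269). The list therefore held members that differed in opposite directions, and neither passed.

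The reticular and hypodermal list, with 16 measured and 15 tested, had 1 call. Dlk1, known as preadipocyte factor 1, rose by 2.999 (limma adjusted p = 0.0242). With any 1 array left out the difference stayed at 2.89 to 3.10 while the call was lost (adjusted p = 0.130 to 0.260). The mean over its probe sets differed by 1.66 (adjusted p = 0.0862) and its other probe set by 0.32 (adjusted p = 0.563). Positive and negative differences were 8 each, with a median of 0.063. Among general dermal fibroblast markers, 21 measured and tested, 0 passed (limma, 2 at an unadjusted p under 0.05) and the median was 0.075. Lum, the proteoglycan lumican, had 12.81 and 12.77 in the knockout, against 12.38 and 10.13 in the wild type, and Fbln1, fibulin 1, had 8.94 and 8.60 against 8.36 and 6.79. For both, wild-type isolation 2 was the lowest array, as for Crabp1, Cd34 and Dpp4, and without it the difference was 0.41 for each, against 1.54 and 1.20 with all arrays. Of the dermal papilla and condensate list, which holds Crabp1, 15 were measured, 9 tested and 0 passed (limma, 1 at an unadjusted p under 0.05), with a median of 0.077. Rspo3, an activator of Wnt signalling, had the largest difference there, at 7.45 and 5.97 in the knockout against 5.45 and 4.05 in the wild type (1.96, SE 0.698, limma adjusted p = 0.427), and the difference was 1.22 without knockout isolation 1 and 0.86 as the mean over its probe sets. The factor Sox2 was below the filter and differed by 0.80.

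Of 32 measured transcription factors of skin mesenchyme, which include En1, Twist1, Twist2 and Prdm1, 25 were tested and 0 passed (limma, 5 at an unadjusted p under 0.05), with a median of 0.032. Foxc2, a forkhead factor, had 4.84 and 5.01 in the knockout, against 6.06 and 7.27 in the wild type (difference -1.73, SE 0.431, limma adjusted p = 0.321), and leaving out wild-type isolation 2 gave -1.13. Meox2, a homeobox factor, had 6.42 and 7.07 in the knockout, against 5.77 and 5.08 in the wild type (difference 1.32, SE 0.342, limma adjusted p = 0.339). These 2 were named because their differences were the largest of the list outside the set. Neither overlapped between the genotypes, while En1, Twist1 and Twist2 did. Of the 32 factors, 4 lay above the wild type without overlap and 8 below it, and 45% of all genes tested did not overlap. The difference between factors was not tested.

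**Figure D4:**
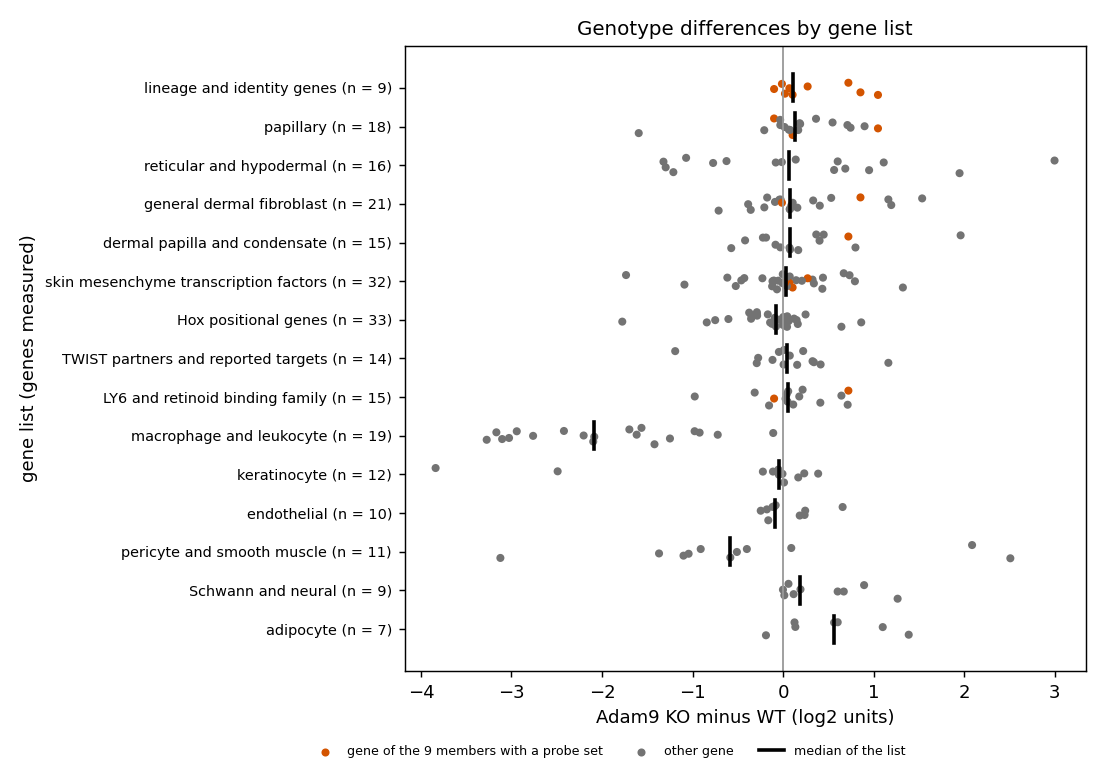
Knockout minus wild type in log2 units (horizontal axis) for each measured gene (dots) of the lists (rows), with the list's median as a black bar and the lineage and identity genes in orange. The medians of the fibroblast lists lie between 0.032 and 0.14, that of the Hox genes at -0.078, and that of the macrophage and leukocyte markers at -2.09.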

How the data were processed

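Total RNA of 4 fibroblast cultures was measured on Affymetrix arrays. The deposited values, 1 for each probe set on an array, were taken as log2, and the authors made them with Affymetrix Expression Console per the submitters' processing notes. Its version, how probes were summarised and the base of the logarithm are not given in the sources at hand. Of 45101 probe sets, 64 were controls, 34958 named 1 gene, and 932 named several and were left out. A RefSeq table of GRCm38.p6 gave current names for 34754 probe sets, matched on Entrez identifier.

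A gene was its probe set with the highest mean, and 13271 genes above the 40th percentile were tested in R 4.3.3 with the lmFit and eBayes functions of limma 3.58.1, with no block. A second fit took 23595 probe sets singly. The procedure was tested on 20 simulated datasets with 200 changed genes each. It recovered 19.6% of differences of 1 log2 unit and 61.8% of differences of 2, so a lack of a call does not show a lack of change. Differences between isolations and lists have no test. The labels do not say that isolations came from separate animals. The p-values thus weigh a difference against the spread between these cultures, moderated by limma over all genes in the fit. The number of arrays limits precision.

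The members and the 18 lists were chosen with earlier results of these data known. Genes named are all members, Adam9, of each list the called genes or the largest 2 by difference, and the nearest 3 in pattern to the widest-spread members. Other genes (Xist, Eif2s3y, Kdm5d, Uty, Mki67, Lrig2, Lrig3 and the defining markers of other cells) were chosen after values were seen. Alternatives were the block, filters, normalizations, other probe set rules, array weights and leaving out each array. For lists and genes outside the set, they were added after the data were seen.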

Additional observations from a re-analysis of the deposited data

How the results depend on the processing

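The count of 0 called among the lineage and identity genes, and among their probe sets, was the same under all alternatives run. Over all genes, 9 were called as reported, 2 with the isolation number as a replicate block, 6 to 11 under the other alternatives and 0 with any 1 array left out. The 9 called with all arrays included Adam9 and the sex-linked Xist, Eif2s3y, Kdm5d and Uty. The labels do not say whether same-numbered isolations shared more than the number. The gaps between isolations in knockout and wild type correlated with r of 0.116 over genes, which cannot settle it. The block moved no member's call, while that of Dlk1 was lost (limma adjusted p = 0.143). The members' median ranged from -0.155 to 0.480 with 1 array left out. With 1 array left out, differences changed sign for Dpp4 (-0.361, where another probe set stood for the gene, to 1.59), Lrig1 (-0.269 to 0.0706), Prdm1 (-0.274 to 0.485), En1 (-0.259 to 0.399), Twist2 (-0.191 to 0.233), Thy1 (-0.112 to 0.0869), Crabp1 (-0.216 to 1.66) and C1qb (-6.01 to 0.0273, the latter where another probe set stood for the gene). Thy1 turned to 0.00696 with median centring and 0.00076 with quantile normalization, and Tyrp1 to 0.0710 with the mean over probe sets and 0.537 without _x_at and _s_at probe sets. Apart from these and 1 array left out, no named difference changed sign. The causes were not tested. No detection calls were used here, so folds of dim probe sets depend on an unknown background.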

Other observations

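Hox genes, the homeobox factors that record position along the body, were measured for 33 of 39 listed genes, and 24 were tested. Limma called 0, with 4 at an unadjusted p under 0.05, and the median difference was -0.078. Hoxd13, the most distal of its cluster, stood at 3.61 and 3.62 in the knockout, against 5.76 and 5.02 in the wild type (difference -1.78, SE 0.278, limma adjusted p = 0.191). Hoxd8 stood at 9.17 and 9.40 in the knockout, against 9.01 and 7.82 in the wild type, a difference of 0.86 that was 0.27 without wild-type isolation 2.

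Lists of other cell types had 0 calls by limma. The median differences were -2.09 for macrophages and leukocytes (-0.18 without wild-type isolation 1), -0.0021 for T cells, -0.049 for keratinocytes, -0.23 for melanocytes, -0.089 for endothelial cells, -0.58 for pericytes and smooth muscle, 0.19 for Schwann and neural cells, 0.56 for adipocytes and 0.067 for skeletal muscle. At an unadjusted p under 0.05 there were 1, 0, 2, 0, 0, 5, 3, 1 and 0 genes in this order. The largest differences were those of Ctss (-3.27) and C1qb (-3.17), Il7r (-0.47) and Cd2 (0.30), Perp (-3.84) and Dsp (-2.49), Mitf (-0.61) and Tyrp1 (-0.32), Tek (0.66) and Kdr (-0.25), Myh11 (-3.12) and Abcc9 (2.51), Cdh19 (1.27) and Erbb3 (0.90), Lpl (1.39) and Cebpa (1.10), and Acta1 (-1.35) and Myh3 (0.45). With 1 array left out, several of these differences were smaller by over 1.5 times. Omitting wild-type isolation 1 gave -0.53 for Ctss and 0.18 for Cd2. Omitting wild-type isolation 2 gave -1.53 for Dsp, -0.63 for Acta1, 0.24 for Tek, 1.49 for Abcc9 and 0.67 for Cebpa. Omitting knockout isolation 1 gave 0.89 for Lpl, and omitting knockout isolation 2 gave -0.054 for Mitf. Erbb3 was 0.19 without knockout isolation 1, but another probe set then stood for the gene. At the probe set used with all arrays, knockout isolation 2 had 4.66 for Erbb3, against 3.88 and 3.98 in the wild type. Abcc9 was 0.93 without _x_at and _s_at probe sets. As the mean over a gene's probe sets, Hoxd13 differed by -1.10, Il7r by -0.14, Dsp by -1.64, Myh11 by -2.03, Erbb3 by 0.50 and Fbln1 by 0.66.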
